A study of Mus musculus with 6 samples.

Results

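The genes described are 42 genes of DNA replication and S phase, the part of the cell cycle in which the genome is copied. They were listed by name, and each was read from the array probe set, a group of short probes for 1 transcript, with the highest mean over the 6 arrays among those annotated with that symbol alone. Of the 42 genes 41 were measured, among 18193 genes in all. Chaf1a was not analysed here.

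The samples were 3 arrays of doxycycline-treated cells and 3 arrays of cells taken 48 h after the drug was removed, all from a single clone, C6, of mouse haematopoietic progenitor cells. The clone has the Rosa26rtTA C57BL/6J background, in which the Rosa26 locus supplies the doxycycline-dependent activator rtTA. It carries the lentiviral vector pRRL.TET.Evi1.IRES.EGFP, which makes a codon-optimized murine Evi1 and the green fluorescent protein EGFP while the drug, here at 1 µg/ml, is present. Cells of both groups grew in the same S3F11 medium, with murine stem cell factor at 50 ng/ml, murine interleukin 3 at 20 ng/ml, human Flt3 ligand at 50 ng/ml and human interleukin 11 at 50 ng/ml. The series text calls the clone Evi1 dependent. Both groups carry the vector and no cells without it were used here, so loss of the drug and loss of Evi1 cannot be told apart. The 3 probe sets named Mecom, the locus of Evi1, were between 2.57 and 3.88 (log2) on all arrays, below the median level of 5.24, with adjusted p of 0.615 or more in limma. Whether they can read the codon-optimized transgene is not known from the files, so the loss of Evi1 itself was not checked. The comparison asks whether replication transcripts differ once the inducer of Evi1, a zinc finger transcription factor, has been gone for 48 h.

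Before S phase, the origin recognition complex with Cdc6 and Cdt1 loads the MCM helicase onto origins, which is called licensing. Cdc45 and the GINS complex then switch the helicase on, polymerases copy the strands around the sliding clamp PCNA, and enzymes of nucleotide synthesis supply the building blocks. Genes of this set are classical targets of E2F transcription factors, which are released from retinoblastoma proteins as a cell passes from G1 into S phase. In blood progenitors their transcripts are widely read as a sign of proliferation.

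No replication or S phase gene measured passed the threshold in either direction after withdrawal. At a limma adjusted p below 0.05, 0 of 41 members were higher, where 1.2% of all genes were, and 0 were lower, where 1.57% were. At an unadjusted limma p below 0.05, 7 members were higher, against 8.0% of all genes, and 1 was lower, against 8.26%. All 41 differences were small, from -0.18 for Tyms to 0.33 for Cdc25a on the log2 scale. The 95% intervals of all 41 lay between -0.42 and 0.49, so the lowest fold change within any interval was 0.747 and the highest was 1.41. Each difference is withdrawal minus doxycycline in log2 RMA units over n = 3 arrays per group, and its interval is limma's, not adjusted for the number of genes.

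The members' differences lay slightly to the higher side. Of 41, 28 were above 0 (68.3%, against 54.0% of all genes) and the median was 0.068, against 0.013 over all genes. All 3 withdrawal arrays lay above all 3 doxycycline arrays for 13 members, or 31.7%, while this held for 12.4% of all genes and for 15.9% of those above the median level of the arrays, where all 41 members lie. All withdrawal arrays lay below for 3 members, or 7.32%, against 12.2% of all genes and 17.7% of those above the median level. These shares describe the members and are not a test of them, and the remaining 25 members had groups that overlapped. In bulk RNA, a different share of cells in S phase and a different amount of RNA per such cell cannot be told apart.

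**Figure D1:**
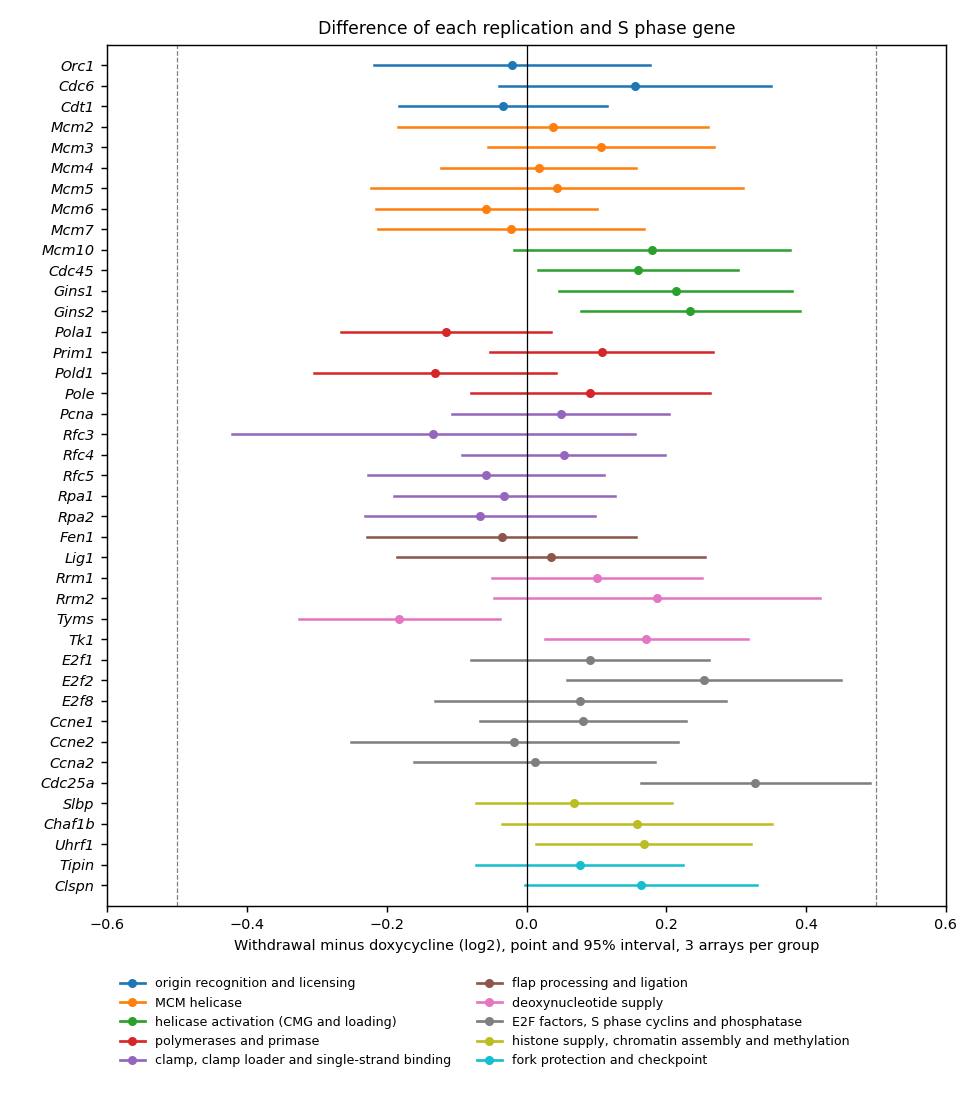
Difference between withdrawal and doxycycline (log2, x axis) of each of the 41 measured members (y axis), with points for the estimate and bars for the 95% interval of limma over 3 arrays per group, coloured by role. All bars lie inside the dashed lines at -0.5 and 0.5, and 33 of the 41 hold 0.

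The difference a member needed to pass depended on its standard error. The largest unadjusted p among called probe sets was 0.000984, which at the members' median standard error of 0.071 corresponds to a difference of 0.371. At the lowest standard error, 0.060 for Mcm4, the same p corresponds to 0.311, and at the highest, 0.124 for Rfc3, to 0.644. The smallest absolute difference among genes that passed was 0.321.

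Sequence upstream of the genes shows what many members share beyond their role. RefSeq promoter windows of 300 bases (250 before to 50 after the annotated start, mouse assembly GRCm38.p6) were found for 34 of the 41 measured members. The 8-base E2F motifs, TTTCCCGC, TTTGGCGC and TTTCGCGC, were searched on both strands. At least 1 was present in a window of 15 of these 34 members (44.1%), against 2.12% of the 27025 genes in the table and 1.84% of its 32851 windows. The CCAAT box, the motif of NF-Y, was in a window of 22 members (64.7%), against 41.1% of all genes. The stretches below are shown because they set the member with the largest difference beside members with smaller differences of either sign. They are the 4 with the smallest adjusted p among members with 1 window and every E2F motif before the start, written 5′ to 3′ on the gene's strand with the motifs in capitals. Those in Cdc6 and Pola1 lie on the opposite strand, and in Mcm6 a motif of each strand overlap in the first capital run.
Cdc25a (chr9:109875452-109875578, plus strand): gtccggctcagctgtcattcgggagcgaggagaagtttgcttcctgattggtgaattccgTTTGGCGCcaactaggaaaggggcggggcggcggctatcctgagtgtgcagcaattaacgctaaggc
Cdc6 (chr11:98907953-98908080, plus strand): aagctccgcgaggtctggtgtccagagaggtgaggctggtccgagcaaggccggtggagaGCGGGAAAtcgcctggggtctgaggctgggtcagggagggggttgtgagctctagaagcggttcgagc
Pola1 (chrX:93632226-93632353, minus strand): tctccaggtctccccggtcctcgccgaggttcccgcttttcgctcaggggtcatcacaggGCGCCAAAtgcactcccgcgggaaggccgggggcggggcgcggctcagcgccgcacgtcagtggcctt
Mcm6 (chr1:128359706-128359875, minus strand): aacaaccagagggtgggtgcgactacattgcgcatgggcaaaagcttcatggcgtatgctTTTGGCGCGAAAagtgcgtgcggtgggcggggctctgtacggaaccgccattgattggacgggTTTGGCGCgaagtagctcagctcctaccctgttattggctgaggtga

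The 4 genes differed by 0.33, 0.16, -0.11 and -0.057 in that order, and the intervals of Cdc6, Pola1 and Mcm6 hold 0. The median difference was 0.035 over the 15 members with an E2F motif in a window and 0.077 over the 19 without. A motif match describes letters in the window and does not show that a factor binds there.

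None of the 3 genes that license origins passed. Cdc6, the loader ATPase, was at 9.17, 9.14 and 8.97 (log2, replicates 1 to 3) after withdrawal and at 8.93, 9.03 and 8.86 under doxycycline, a difference of 0.16 with an interval of -0.039 to 0.35. Replicate 3 of withdrawal lay below the highest doxycycline array, so the groups overlapped. Orc1, the largest subunit of the origin recognition complex, differed by -0.021 (interval -0.22 to 0.18). Cdt1, the partner of Cdc6 in helicase loading, differed by -0.033 (interval -0.18 to 0.12).

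The 6 subunits of the MCM2-7 helicase, which unwinds the DNA ahead of the fork, differed by between -0.057 (Mcm6) and 0.11 (Mcm3), with intervals inside -0.22 to 0.31. Mcm4 was the steadiest across arrays, at 11.06 on each withdrawal array and at 11.05, 11.06 and 11.03 under doxycycline, a difference of 0.017 ± 0.060 (SE). Mcm5 had the widest spread of the 6, at 11.89, 11.86 and 11.53 after withdrawal and 11.60, 11.84 and 11.72 under doxycycline. Withdrawal replicate 3 was the lowest of its group for all 6 subunits and the lowest of all 6 arrays for 4 of them. This is not particular to them. Among all genes above the median level, that array was the lowest of its group for 51.5% and the lowest of 6 for 28.4%. Without that array the differences of the 6 subunits ran from -0.035 to 0.16, and 5 of 6 were above 0. Mcm2 differed by 0.038 and Mcm7 by -0.022.

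Factors that switch the loaded helicase on all had differences above 0, as 54.0% of all genes did, and 0 of 4 passed. Cdc45 and the GINS subunits Gins1 and Gins2 form the active helicase together with MCM2-7. Gins2 was at 8.90, 9.00 and 8.91 after withdrawal and at 8.76, 8.70 and 8.65 under doxycycline, a difference of 0.23 ± 0.067 (SE; limma adjusted p = 0.162). Gins1 was at 9.29, 9.31 and 9.30 against 8.98, 9.17 and 9.10, a difference of 0.21 ± 0.072 (adjusted p = 0.226). Cdc45 was at 8.90, 8.92 and 8.91 against 8.72, 8.79 and 8.75, a difference of 0.16 ± 0.061 (adjusted p = 0.295). In these 3 genes each withdrawal array lay above each doxycycline array, which held for 12.4% of all genes and 15.9% of those above the median level. Mcm10, which helps the helicase start, was at 8.83, 8.89 and 8.74 against 8.52, 8.77 and 8.64, a difference of 0.18 ± 0.085 (adjusted p = 0.403), and its groups overlapped. The highest interval bound of the 4 genes was 0.39.

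The polymerase genes were split in sign. Prim1, the catalytic subunit of primase, differed by 0.11 and Pole, the catalytic subunit of the leading strand polymerase, by 0.092. Pola1, the polymerase subunit that extends the primers, differed by -0.11 and Pold1, the catalytic subunit of the lagging strand polymerase, by -0.13. All withdrawal arrays lay above doxycycline for Pole and below it for Pola1 and Pold1, yet the adjusted p of these 4 genes ran from 0.491 to 0.650. Of all genes, 12.4% had all withdrawal arrays above and 12.2% had all below.

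Clamp and clamp loader genes differed by between -0.13 (Rfc3) and 0.053 (Rfc4). Pcna, the sliding clamp, was at 12.78, 12.83 and 12.92 after withdrawal and at 12.82, 12.77 and 12.80 under doxycycline, a difference of 0.049 (interval -0.11 to 0.20). The clamp loader genes Rfc3, Rfc4 and Rfc5 differed by -0.13, 0.053 and -0.058. Rfc3 varied most within groups among all members, at 7.55, 7.44 and 7.76 against 7.72, 7.52 and 7.92, and it has the widest interval (-0.42 to 0.16). The single-strand binding subunits Rpa1 and Rpa2 differed by -0.032 and -0.066. Fen1, the flap nuclease, and Lig1, the ligase that joins lagging strand fragments, differed by -0.036 and 0.035.

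Deoxynucleotide supply held the member with the lowest difference. Tyms, the thymidylate synthase gene, was at 6.55, 6.48 and 6.49 after withdrawal and at 6.70, 6.68 and 6.68 under doxycycline, a difference of -0.18 ± 0.062 (SE; adjusted p = 0.231). Tk1, the thymidine kinase of the salvage route to the same nucleotide, was at 9.41, 9.42 and 9.43 against 9.20, 9.26 and 9.29, a difference of 0.17 ± 0.062 (adjusted p = 0.265). The groups of each gene did not overlap, and they lay in opposite directions. Rrm2, a subunit of ribonucleotide reductase, was at 12.35, 12.31 and 12.52 against 12.39, 12.13 and 12.11, a difference of 0.19 ± 0.10 (adjusted p = 0.470). In Rrm2 doxycycline replicate 1 lay above withdrawal replicates 1 and 2 on the probe set used. On the next brightest Rrm2 probe set the groups did not overlap, at 11.37, 11.32 and 11.41 against 11.16, 11.13 and 11.14. Rrm2 did not pass there either (limma adjusted p = 0.153). Its partner subunit Rrm1 differed by 0.10 (adjusted p = 0.553).

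Among regulators of S phase entry, Cdc25a came closest to the threshold. Cdc25a is a phosphatase that removes the inhibitory phosphate from cyclin-dependent kinases. It was at 10.21, 10.19 and 10.09 after withdrawal and at 9.77, 9.87 and 9.88 under doxycycline. The difference of 0.33 ± 0.070 (SE; fold 1.25, interval 1.12 to 1.41) had an adjusted p of 0.0711 in limma, and all 3 withdrawal arrays were above all 3 doxycycline arrays. It passed under 4 of the 16 alternatives: above the median level (adjusted p = 0.0205), with a repeated quantile normalization (0.0468), with trend and robust options (0.00343) and with array weights (0.0307). With 1 array left out its adjusted p ran from 0.0854 to 0.245.

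E2f2, an activating E2F gene, was at 8.80, 8.66 and 8.79 against 8.54, 8.58 and 8.36, a difference of 0.25 ± 0.084 (SE; adjusted p = 0.222) with groups apart. E2f1, its close relative, differed by 0.091 (adjusted p = 0.649), and E2f8, a repressive member of the family, by 0.077 (adjusted p = 0.772). The cyclin E genes Ccne1 and Ccne2, which drive entry into S phase, differed by 0.080 and -0.017, and the cyclin A gene Ccna2 by 0.012. Ccne2 spread from 8.71 to 9.09 within the withdrawal group and only from 8.88 to 8.93 under doxycycline.

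**Figure D2:**
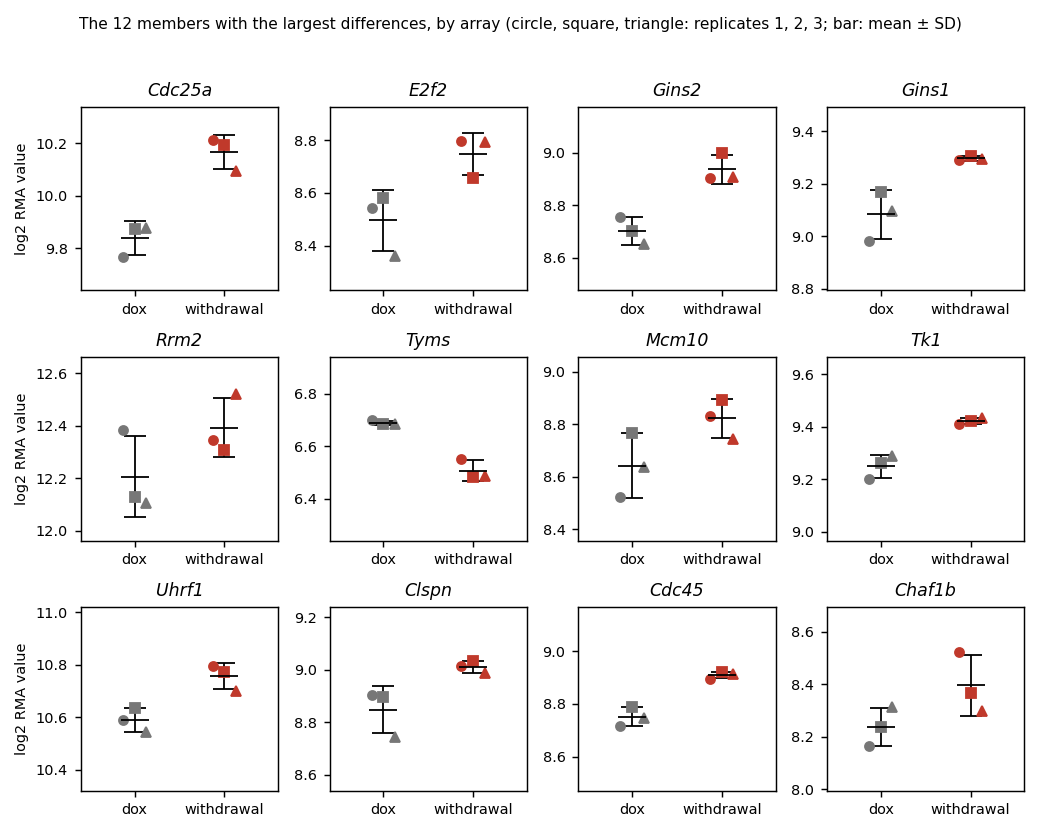
Log2 RMA value on each array (y axis, each panel spanning 0.7 log2 units) under doxycycline and after withdrawal for the 12 members with the largest absolute difference, with the mean ± SD of 3 arrays. The groups are apart in 9 panels and overlap for Rrm2, Mcm10 and Chaf1b, and Tyms is the 1 gene with lower withdrawal values.

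All 5 chromatin and fork genes had differences above 0, as 54.0% of all genes did, and 0 passed. Uhrf1, which carries DNA methylation through replication, was at 10.80, 10.77 and 10.70 after withdrawal against 10.59, 10.64 and 10.54, a difference of 0.17 ± 0.066 (SE; adjusted p = 0.306) with groups apart. Chaf1b, a subunit of the chromatin assembly factor that places histones behind the fork, was at 8.52, 8.37 and 8.30 against 8.17, 8.24 and 8.31, a difference of 0.16 ± 0.083 (adjusted p = 0.458) with groups that overlapped. Slbp, which binds the stem loop of histone mRNAs, differed by 0.068.

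Clspn, the adaptor of the replication checkpoint, was at 9.01, 9.03 and 8.99 against 8.91, 8.90 and 8.74, a difference of 0.16 ± 0.071 (SE; adjusted p = 0.358). Its groups did not overlap. Tipin, which protects the fork with its partner Timeless, differed by 0.076 (adjusted p = 0.666), also with groups apart. Withdrawal arrays all lay above doxycycline for 12.4% of all genes and 15.9% of those above the median level.

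The median SD of the members was 0.066 after withdrawal and 0.056 under doxycycline, and their median absolute difference was 0.091. Withdrawal replicate 3 was the lowest array of its group for 26 of 41 members (63.4%), and it was so for 51.5% of all genes above the median level. It and doxycycline replicate 1 stood apart on the second principal component of all arrays, which held 31.9% of the variance. Without both arrays, a choice made after seeing the data, 0 members passed in either direction (limma, 3 higher and 0 lower at an unadjusted p below 0.05), 33 of 41 differences were above 0 and their median was 0.083. The cause of the second component was not tested.

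**Figure D3:**
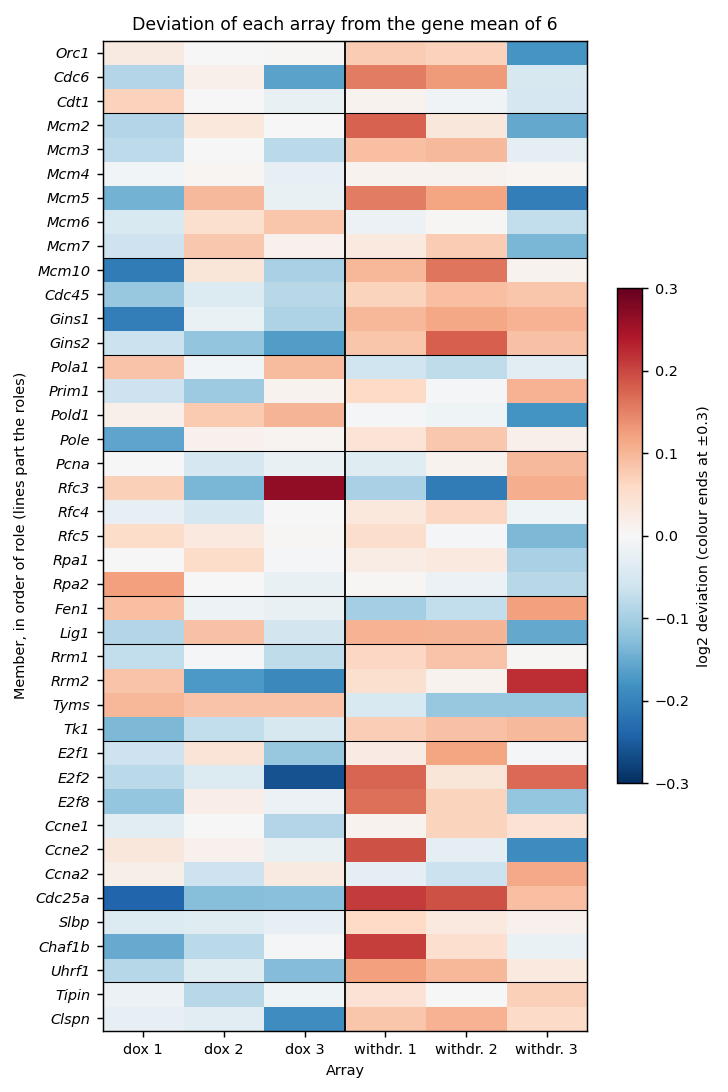
Deviation of each array (columns) from the mean of its gene over all 6 arrays, as colour on the log2 scale, for the 41 members in order of role (rows). Withdrawal replicate 3 is bluer than the other withdrawal arrays for origin and MCM genes, and it is the lowest of its group for 26 of 41 members.

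Other probe sets of the same genes gave a check on the size of the differences. The 41 members were read by 90 probe sets, of which 0 passed (limma), with 14 higher and 1 lower at an unadjusted p below 0.05, against 6.85% and 7.48% of all probe sets. Cdc25a, Gins2 and Rrm2 each gave more than 1 of the 14, so these are not 14 separate genes. Those of E2f8 (mean 4.91) and Rrm1 (mean 3.32) were below the median level. Of the 90, 77 were above that level, so all probe sets are a dimmer background. Of 29 members with 2 or more probe sets above the median level of the arrays, the 2 brightest differed in the same direction in 21, and the median gap between them was 0.054. Cdc25a (0.33 and 0.35), Rrm2 (0.19 and 0.22), E2f2 (0.25 and 0.21) and Gins2 (0.23 and 0.18) gave like values on both. Tyms (-0.18 and 0.059), Pold1 (-0.13 and 0.12) and Rrm1 (0.10 and -0.11) had opposite signs on their probe sets, so the direction of these 3 depends on the probe set read. Clspn (0.16 and -0.014), Slbp (0.068 and -0.034), Cdt1 (-0.033 and 0.065), Orc1 (-0.021 and 0.033) and Mcm4 (0.017 and -0.0039) also had opposite signs. Over all probe sets above the median level, 18 of the 29 members kept the same sign. Gins1 (0.21 and 0.063) was closer to 0 on the other probe set.

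**Figure D4:**
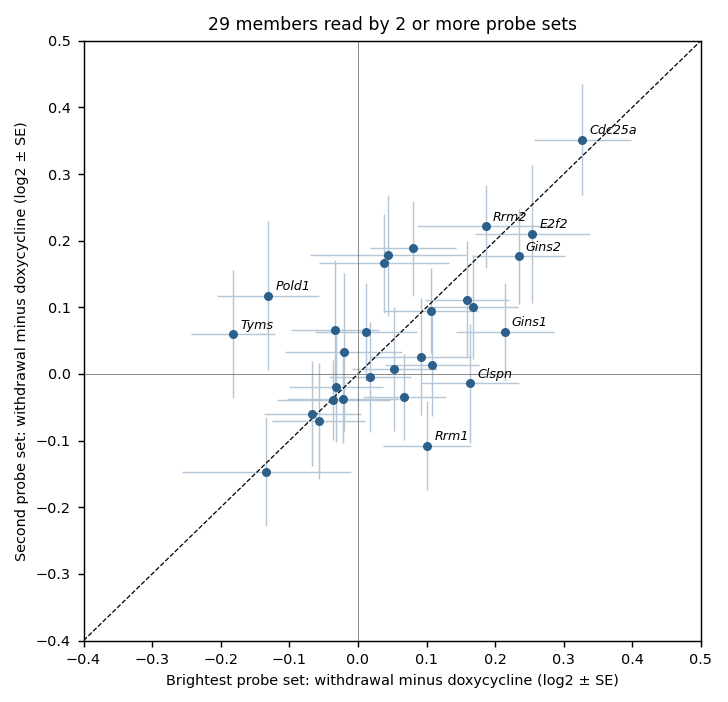
Difference between withdrawal and doxycycline (log2 ± SE) on the brightest probe set (x axis) against the second brightest (y axis) for 29 members with 2 or more probe sets above the median level. Points for 21 genes lie in the quadrants of equal sign, and the largest gap from the dashed line of equality is 0.248, for Pold1.

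A pair of probe sets stood out in the same 2 arrays. The dimmest of 5 probe sets named Mcm3 was at 6.58, 6.65 and 8.49 after withdrawal and at 8.35, 6.61 and 7.14 under doxycycline. A dim probe set named Mcm10 was at 4.82, 4.92 and 5.76 against 5.71, 4.86 and 5.06. In both, withdrawal replicate 3 and doxycycline replicate 1 were the highest arrays, by 1.68 and 0.82 over the mean of the other 4, while the brighter probe sets used for these genes showed no such gap. These were chosen after their values were seen, and 9 of 90 member probe sets had these arrays highest, against 8.39% of all probe sets. Of the 41 probe sets used for the members, 2 (4.88%) had these arrays highest, those of Rrm2 (by 0.23) and Fen1 (by 0.16). Another 6 of the 41 (14.6%) had them lowest, against 9.08% of all probe sets.

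The rest of the replication machinery did not pass either. A further list of 66 measured genes, with other subunits of the origin, helicase and polymerase complexes and genes of nucleotide supply and fork repair, gave 0 higher and 0 lower (limma), with 2 and 5 at an unadjusted p below 0.05 (8.0% and 8.26% of all genes). Their median difference was 0.018, and 37 of the 66 were above 0 (56.1%, against 54.0% of all genes and 68.3% of members). For 10 of the 66 (15.15%) each withdrawal array lay above each doxycycline array. This held for 15.9% of genes above the median level, where all 66 lie, and for 31.7% of members. For 6 (9.09%) each lay below, against 17.7% of genes above that level. Whether these shares differ from those of the members was not tested. Pold4, a small subunit of the polymerase of Pold1, had the largest difference, from 8.59, 8.68 and 8.82 under doxycycline to 9.06, 9.02 and 9.01 (0.33 ± 0.077, SE; adjusted p = 0.0887). Msh6, a mismatch repair gene, had the lowest, from 9.85, 9.79 and 9.75 to 9.54, 9.54 and 9.50 (-0.28 ± 0.064; adjusted p = 0.0887). The groups of each did not overlap.

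Of 31 measured genes of G2 and mitosis 0 were higher and 0 lower (limma), with 4 and 1 at an unadjusted p below 0.05 (8.0% and 8.26% of all genes), and the median difference was 0.098. Aurka, a mitotic kinase, differed by 0.28 ± 0.061 (SE; adjusted p = 0.0755) and Plk1, another, by 0.22 ± 0.078 (adjusted p = 0.264). All withdrawal arrays lay above all doxycycline arrays for 17 of the 31 genes (54.8%), against 12.4% of all genes and 15.9% of those above the median level. Whether this differs from the share among members was not tested.

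Genes that control exit from G1 held the single call of these lists. This list of 18 measured genes has D-type cyclins, their kinases, inhibitors, retinoblastoma proteins and Myc genes. At a limma adjusted p below 0.05, 0 were higher and 1 was lower, against 1.2% and 1.57% of all genes. At an unadjusted p below 0.05, 3 were higher and 4 lower (16.7% and 22.2%, against 8.0% and 8.26% of all genes). The median difference was -0.051. Mycn, a transcription factor gene of the Myc family, fell from 7.76, 7.82 and 7.88 under doxycycline to 7.42, 7.37 and 7.39, a difference of -0.43 ± 0.065 (SE; adjusted p = 0.0231). That call was lost with any 1 array left out (adjusted p from 0.0586 to 0.116). It was also lost with the mean of the gene's probe sets (-0.16). Ccnd3, the cyclin D3 gene, differed by 0.29 (adjusted p = 0.205) and Myc by -0.29 (adjusted p = 0.0730).

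**Figure D5:**
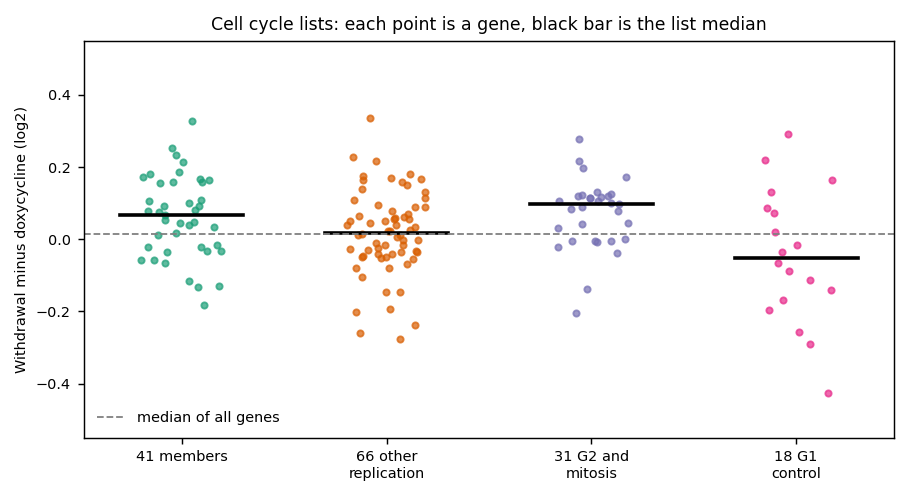
Difference between withdrawal and doxycycline (log2, y axis) of each gene in 4 cell cycle lists (x axis), with black bars at the list medians of 0.068, 0.018, 0.098 and -0.051. The lowest point is Mycn, the 1 gene of these lists that passed the threshold.

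All 11 blood and myeloid progenitor genes measured, which mark the labelled cell type, were above the median level of the arrays. So were all 6 macrophage genes, 2 of 4 red cell genes, 2 of 5 B and T cell genes and 1 of 6 stromal genes. This level does not set progenitors apart from macrophages. Progenitor markers themselves differed between the groups in limma: Cebpa and Elane, genes of granulocyte development, rose by 0.74 each, Cd34 fell by 0.51, and the mean over the 11 genes ran from 10.69 to 10.80 after withdrawal and from 10.54 to 10.59 under doxycycline. Of 6 macrophage genes 2 fell, and the mean over the list ran from 8.73 to 8.76 after withdrawal and from 8.99 to 9.03 under doxycycline. The part of these markers in the replication values was not tested. Array medians ran from 5.22 to 5.27, and the labels do not state whether replicates were grown separately, so p-values here reflect array-to-array spread that may be technical.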

How the data were processed

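Total RNA was amplified as cDNA, labelled with biotin and hybridised to 6 arrays, per the labels' protocols. The deposited values are log2 expression per probe set made with RMA, per the submitters' processing notes, with a version and chip definition not given in the sources used. RMA gives the arrays a shared distribution, so a change of most transcripts at once would not be seen. The table held 45101 rows, and 64 control probe sets were left out.

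The 45037 other probe sets were fitted in limma 3.58.1 (lmFit, then eBayes; R 4.3.3) between the groups, with no covariate, 4 residual and 3.54 prior degrees of freedom, two-sided p-values, Benjamini-Hochberg adjustment and a threshold of 0.05. Only a gene past it is said to have risen or fallen. Of the steps, only the limma fit was tested on simulated data, with independent noise and with changes larger than that of any member. Figures used matplotlib 3.10.9.

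The members, lists, naming rule and tests were chosen with earlier results of these data known. All members may be named, with every array given for the 12 largest differences and some others. Of other lists, passed genes and up to 2 of the largest differences among the rest are named. Marker genes named are those past the threshold. Some genes of those lists are not reported here. Alternatives were each array left out, a replicate block, a level filter, other scalings, eBayes options, array weights and other probe set choices.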

Additional observations from a re-analysis of the deposited data

How the results depend on the processing

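With any 1 array left out, with a replicate block, with arrays centred on their medians, with the other probe set choices and on 4 arrays (an alternative added after seeing the data), 0 members passed in either direction in limma. Same-numbered arrays did not all deviate together (correlations of -0.30, 0.46 and -0.033). Whether the numbers pair the samples cannot be told from 3 arrays per group, and the labels do not state it. The replicate block left the members' median at 0.068, with 5 higher and 1 lower at an unadjusted limma p below 0.05. The members' median stayed between 0.049 and 0.083 over all 16 alternatives. Counts of higher members became 2 above the median level (Cdc25a and Gins2), 1 with a repeated quantile normalization (Cdc25a), 2 with trend and robust options (Cdc25a and Gins2) and 1 with array weights (Cdc25a). Higher and lower counts of other replication genes became 2 and 2 above the median level, 2 and 3 with trend and robust options, 1 and 2 with the mean of all probe sets of a gene, and 0 and 1 with array weights. For G2 and mitosis genes, 1 was higher above the median level, 2 with trend and robust options, where 1 was lower, and 1 with array weights. The cause of these changes was not tested. On the probe set of largest variance, Cdc25a differed by -0.20 and Mcm10 by -0.040, the latter also on probe sets without shared names, and both probe sets are below the median level of the arrays. Over all settings 22 of 41 members kept the sign of their difference, 19 above 0 and 3 below, and the other 19 changed sign in at least 1 setting. The probe sets used for all 41 members are above that level, and 3 arrays per group limit the precision.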
